A study of Mus musculus with 12 samples.

Results

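RNA sequencing libraries of splenic marginal zone (MZ) B cells from 3 Zbtb24 conditional knockout (CKO) mice were compared with those from 3 control mice. These 6 libraries were chosen by the group named in their labels and are 6 of the 12 in the series, whose other 6 hold follicular (FO) B cells. All mice were of the C57BL/6 strain and 8 to 12 weeks old. Control mice carried VAVcre alone, with the genotype given as WT, and CKO mice carried VAVcre with Zbtb24 deleted, the genotype given as Zbtb24-/-, so that both groups shared the Cre transgene. The Vav promoter drives Cre in blood-forming cells of all lineages, so deletion was not restricted to B cells or to their MZ stage. The form of the floxed allele was not given in the sources used here. Cells were separated from spleen with a Miltenyi magnetic isolation kit, and sequencing libraries were built from 0.1 ug of total RNA with an Illumina TruSeq RNA kit. Each label carries an animal number (1505, 1507 and 2003 for controls 1 to 3; 1512, 1514 and 2002 for CKO 1 to 3). The p-values of CKO against control in MZ libraries measure the spread between these animals.

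ZBTB24 is a zinc finger protein of the BTB family that binds DNA at promoters, and its loss in humans causes a form of ICF syndrome, named for immunodeficiency, centromeric instability and facial anomalies. The other ICF genes are DNMT3B, a DNA methyltransferase, CDCA7, a zinc finger protein, and HELLS, the chromatin remodeller that CDCA7 recruits, and CDCA7 is a known direct target that ZBTB24 activates. MZ B cells sit around the white pulp of the spleen, next to the marginal sinus, carry high levels of the complement receptor CD21 (Cr2) and the lipid-presenting molecule CD1d, and give rapid antibody responses to blood-borne antigens.

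Gene counts per library ranged from 36340116 to 44629250, after leaving out entries that name no gene (43.7 to 50.4% of the listed reads). Of 46078 genes in the file, 30506 had a count in at least 1 of these libraries and 17658 passed the filter on low counts and were tested. The leading principal component held 37.6% of the variance and did not order the libraries by genotype, with control scores of -11.8, 22.8 and -35.9 and CKO scores of 16, 38.9 and -30, the animals numbered 20xx (control 3 and CKO 3) having the lowest. Xist was counted in all 6 libraries, and the Y-linked genes Ddx3y and Eif2s3y had 0 counts in all 6, while the Y-linked genes Kdm5d and Uty were counted in all 6, at 2.09 to 2.79 and 1.54 to 2.47 CPM. The MZ label fits the marker genes: Cr2, Cd1d1, S1pr3, Dtx1, Cd36, Nebl, Myof, Tm6sf1, Cd9 and Ackr3 summed to 6497 to 7294 CPM (counts scaled to a common library size) in control and 5727 to 7332 CPM in CKO libraries, against 1254 to 1686 CPM in FO control libraries of the same series. The FO marker Fcer2a (CD23) was at 65.8, 74.3 and 68.9 CPM in control and at 75.5, 94.1 and 75.3 CPM in CKO libraries, against 522 to 588 CPM in FO control libraries.

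Few genes separated CKO from control MZ B cells. Those that fell included genes that other work reports as targets of ZBTB24. That list was fixed with earlier results of these libraries known, so it is not independent evidence. With edgeR's quasi-likelihood test and a Benjamini-Hochberg adjusted p under 0.05, 14 of 17658 genes passed (0.0793% of the genes tested), 10 higher (0.0566%) and 4 lower (0.0227%) in CKO libraries, and 512 genes had an unadjusted p under 0.05. DESeq2 called 35 of 16307 genes with an adjusted p (0.215%), 24 higher (0.147%) and 11 lower (0.0675%). The 35 included all 14 edgeR calls. Without MZ CKO replicate 3 DESeq2 called 123 genes, 63 higher and 60 lower, an alternative chosen after seeing the data. The edgeR count moved with single libraries, to 34 when MZ CKO replicate 3 was left out and to 7, 5 and 9 when MZ Control replicate 1, 2 or 3 was. All 14 edgeR calls were also made without MZ CKO replicate 3, and limma-voom called 7 genes (0.0396%).

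Zbtb24 itself (ENSMUSG00000019826, GRCm38 chromosome 10, 41450383 to 41465574, plus strand) was still counted in CKO libraries. Control libraries 1 to 3 held 48.0, 52.0 and 53.5 CPM, and the level in CKO libraries 1 to 3 was 45.5, 40.8 and 41.3 CPM. All 3 CKO libraries lay below the lowest control, at 88.9, 79.7 and 80.7% of the control mean, but the difference did not pass (log2 fold change -0.27, SE 0.08, adjusted p = 1 by edgeR and by DESeq2; exact permutation p = 0.1, the smallest that 3 against 3 allows). Groups parted in this way in 3.96% of the genes tested. Counts cover the whole gene, so reads from the exons removed by Cre were not separated from the rest, and this level says nothing on how complete the deletion was.

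Cdca7 (ENSMUSG00000055612, chromosome 2, 72476159 to 72486893, plus strand) was counted at 32.4, 41.7 and 33.2 CPM in control libraries and at 2.71, 5.25 and 1.85 CPM in CKO libraries. The CKO libraries thus held 7.56, 14.7 and 5.18% of the control mean, all below the lowest control, with CKO library 2 the highest of the 3. The edgeR test did not pass (log2 fold change -3.45, SE 0.42, adjusted p = 0.2909). The DESeq2 test did (adjusted p = 4.606e-11), as did limma-voom (0.004546), edgeR without robust dispersions (0.01197) and edgeR without MZ CKO replicate 2 (9.893e-05), and the range over all alternatives was 4.606e-11 to 1. Axin2, a negative regulator of Wnt signalling, was at 3.98, 5.45 and 3.61 CPM in control libraries and at 0.244, 1.04 and 0.708 CPM in CKO libraries. It was lower by DESeq2 (adjusted p = 9.644e-10) and not by edgeR (log2 fold change -2.71, SE 0.44, adjusted p = 0.2278; range over the alternatives 4.684e-19 to 0.8758). Axin2 overlaps the minus-strand gene Gm11670 in the annotation.

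The 4 genes that fell by edgeR were Taf6, Ostc, Cdc40 and Dtnb. Taf6, a subunit of TFIID, the complex that recognises core promoters for RNA polymerase II, was at 34.5, 36.5 and 33.4 CPM in control libraries and at 20.9, 19.4 and 20.3 CPM in CKO libraries (log2 fold change -0.78, SE 0.09, adjusted p = 0.005723). The CKO libraries lay close together, at 58.2% of control on average. Ostc, a subunit of the oligosaccharyltransferase that adds N-glycans to nascent proteins, was at 37.6, 38.2 and 39.1 CPM in control libraries and at 26.0, 20.2 and 21.9 CPM in CKO libraries (log2 fold change -0.75, SE 0.10, adjusted p = 0.02459). Cdc40, a splicing factor of the second catalytic step, was at 31.0, 32.6 and 32.4 CPM in control libraries and at 19.9, 21.4 and 17.6 CPM in CKO libraries (log2 fold change -0.70, SE 0.10, adjusted p = 0.02479). All of these CKO values stood below the lowest control. Dtnb, the dystrobrevin beta gene, was at 47.1, 49.3 and 51.3 CPM in control libraries and at 33.1, 33.2 and 33.9 CPM in CKO libraries (log2 fold change -0.56, SE 0.08, adjusted p = 0.02459). Without MZ Control replicate 1 or 2 the Taf6 call ended (adjusted p up to 0.06001). Calls of Ostc, Cdc40 and Dtnb ended without any of the 3 control libraries in turn, with adjusted p up to 0.1515, 0.18 and 0.2217. Those of Cdc40 and Dtnb also ended without MZ CKO replicate 1. Taf6 passed limma-voom (adjusted p = 0.02161), and Ostc, Cdc40 and Dtnb did not (0.08416 each). Taf6 overlaps Ap4m1 on the other strand, and no source used here says whether the counting used strand.

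**Figure D1:**
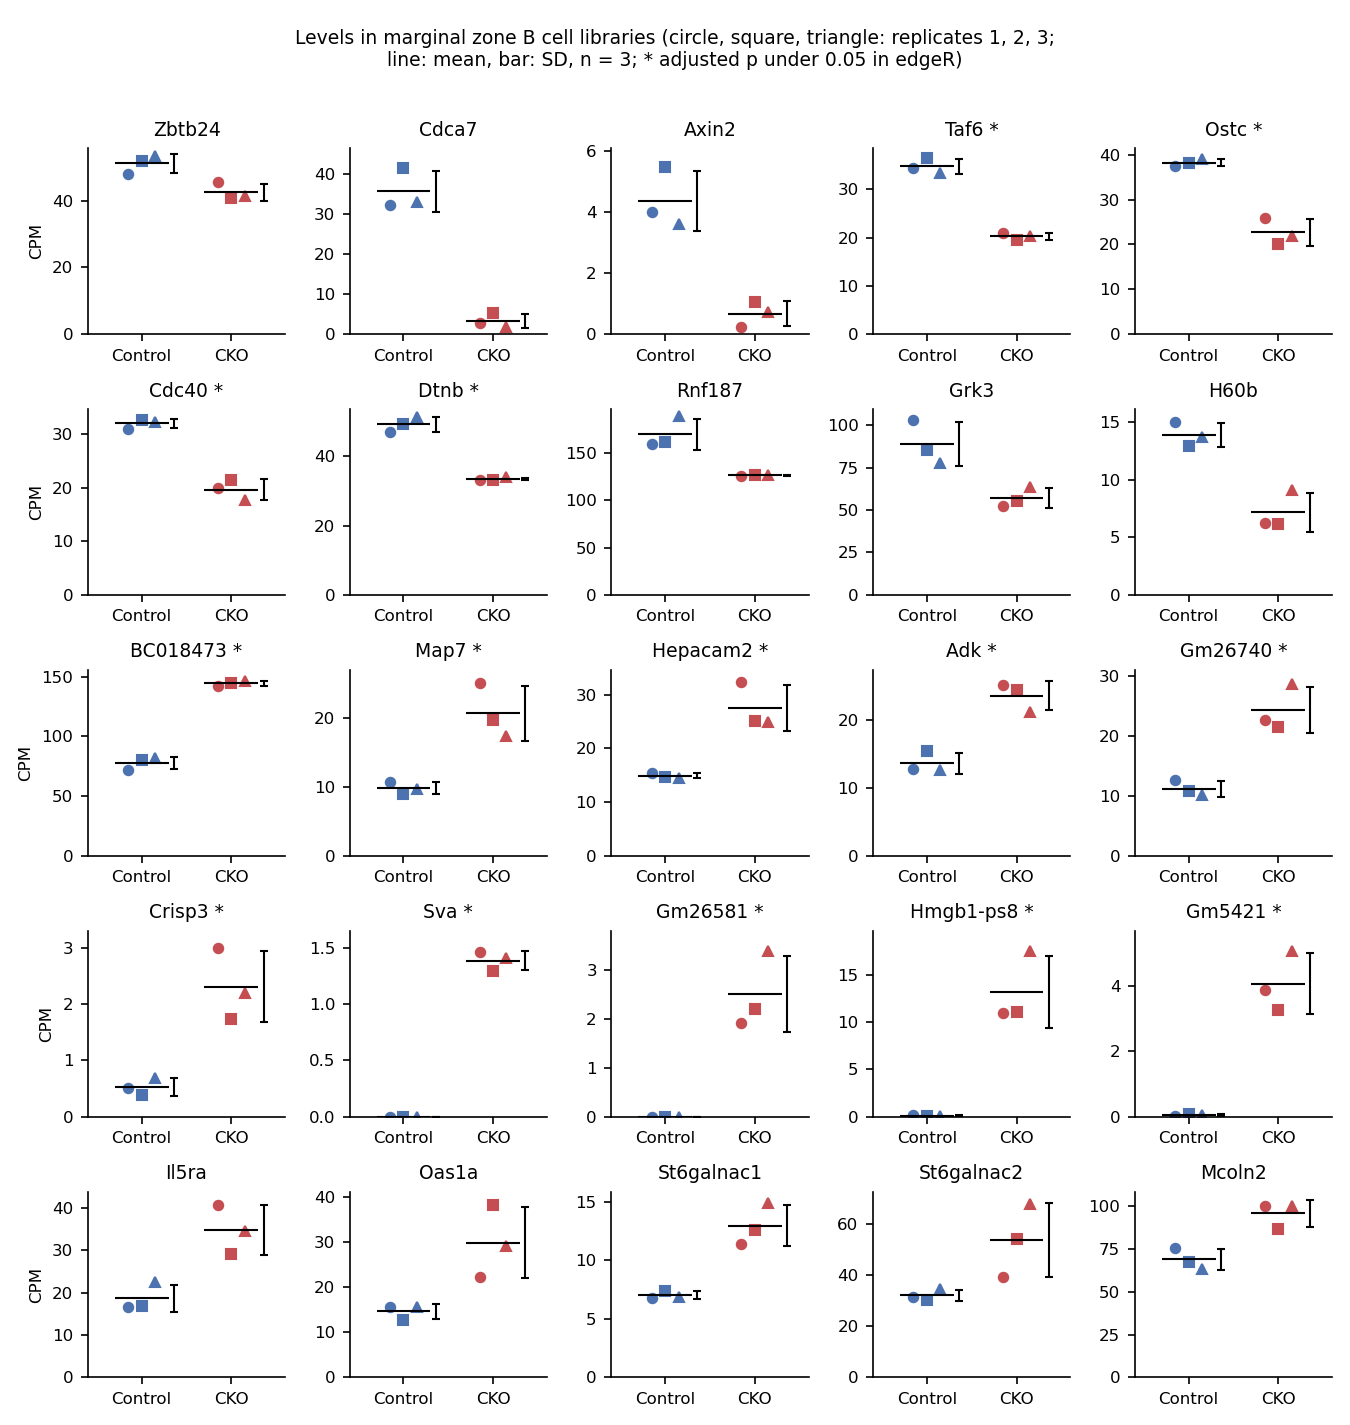
Levels in CPM (linear axes from 0) of 25 genes in each MZ library, controls in blue and CKO in red, with the group mean as a line and the SD as a bar (n = 3). The genes of the top 2 rows lie lower in CKO libraries, Zbtb24 by the least, and Sva, Gm26581, Hmgb1-ps8 and Gm5421 are at or near 0 in all 3 controls.

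Promoter windows of these genes were taken from RefSeq on GRCm38.p6, to set the letters bound by ZBTB24 in other cells beside the levels. The core motif reported for ZBTB24, CAGGACCT, was searched on both strands in windows from 250 bases before to 50 bases after each transcription start. It was present in 1.99% of 32851 windows, and at least 1 window held it for 2.3% of 27025 genes and for 2.16% of the 11175 tested genes that have a window. Among the genes that fell by edgeR it was present in Taf6, Cdc40 and Dtnb, the 3 with a window, and Ostc has no window in the table. Among the 8 DESeq2 lower genes with a window it was present in 5 (Cdca7, Taf6, Cdc40, Dtnb and Rnf187) and not in Axin2, Fam241b or Siglech. Among the 16 DESeq2 higher genes with a window it was present in Adk alone. The stretches below show where those letters lie in the lower genes, with Axin2 as a gene with a large difference and no match, and with Rnf187 and Adk, whose windows were chosen after the matches were seen. Each runs 5′ to 3′ on the strand of the gene, from 250 bases before to 20 bases after the start, with matches to the motif or its reverse complement in capitals.
Cdca7, chr2:72475969-72476238, plus strand: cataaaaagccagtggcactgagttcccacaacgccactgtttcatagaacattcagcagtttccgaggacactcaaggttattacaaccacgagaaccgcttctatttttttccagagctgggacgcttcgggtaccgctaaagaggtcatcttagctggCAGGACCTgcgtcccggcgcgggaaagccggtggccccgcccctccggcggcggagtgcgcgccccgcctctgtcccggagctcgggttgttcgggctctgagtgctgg
Taf6, chr5:138187207-138187476, minus strand: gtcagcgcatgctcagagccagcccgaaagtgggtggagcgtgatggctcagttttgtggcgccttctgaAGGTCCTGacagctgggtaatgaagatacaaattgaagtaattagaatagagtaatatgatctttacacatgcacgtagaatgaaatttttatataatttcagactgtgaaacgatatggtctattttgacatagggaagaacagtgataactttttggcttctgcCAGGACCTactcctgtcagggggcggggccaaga
Cdc40, chr10:40883124-40883393, minus strand: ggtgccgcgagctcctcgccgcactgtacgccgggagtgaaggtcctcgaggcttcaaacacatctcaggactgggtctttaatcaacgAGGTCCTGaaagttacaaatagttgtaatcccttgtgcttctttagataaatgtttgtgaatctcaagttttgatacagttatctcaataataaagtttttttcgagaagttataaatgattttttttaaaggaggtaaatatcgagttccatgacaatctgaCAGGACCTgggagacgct
Dtnb, chr12:3572734-3573003, plus strand: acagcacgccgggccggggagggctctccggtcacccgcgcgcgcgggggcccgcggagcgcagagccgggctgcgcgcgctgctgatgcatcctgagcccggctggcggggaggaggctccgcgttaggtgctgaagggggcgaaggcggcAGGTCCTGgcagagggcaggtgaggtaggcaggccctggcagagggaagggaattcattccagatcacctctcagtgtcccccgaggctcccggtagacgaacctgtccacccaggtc
Rnf187, chr11:58938887-58939156, minus strand: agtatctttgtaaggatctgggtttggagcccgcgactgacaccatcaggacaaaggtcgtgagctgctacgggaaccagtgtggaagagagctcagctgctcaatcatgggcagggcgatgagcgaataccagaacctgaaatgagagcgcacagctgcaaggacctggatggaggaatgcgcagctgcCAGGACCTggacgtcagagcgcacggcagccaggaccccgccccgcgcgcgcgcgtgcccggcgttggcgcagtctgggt
Axin2, chr11:108920099-108920368, plus strand: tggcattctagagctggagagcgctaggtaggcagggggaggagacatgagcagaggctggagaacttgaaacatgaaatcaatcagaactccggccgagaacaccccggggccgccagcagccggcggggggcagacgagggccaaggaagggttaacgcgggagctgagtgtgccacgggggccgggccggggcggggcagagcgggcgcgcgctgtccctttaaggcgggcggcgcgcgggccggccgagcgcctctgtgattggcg
Adk, chr14:21052324-21052593, plus strand: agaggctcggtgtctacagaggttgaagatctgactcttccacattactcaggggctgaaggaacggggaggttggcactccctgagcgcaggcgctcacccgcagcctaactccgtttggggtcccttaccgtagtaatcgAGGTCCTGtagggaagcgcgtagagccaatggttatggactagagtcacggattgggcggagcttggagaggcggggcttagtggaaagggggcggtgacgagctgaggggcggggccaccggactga

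Counted from the transcription start (the first transcribed base is 1), the match began at -89 in Cdca7, at -60 in Rnf187 and, on the reverse strand, at -98 in Dtnb and -108 in Adk. Taf6 held a match at -180 on the reverse strand and a second at -14, and Cdc40 held a match at -161 on the reverse strand and a second at 3. Dtnb has 4 windows in the table, of which the 1 printed held a match, and Taf6 and Adk each have 2, of which 1 held a match. The other reported target with matches was Camkmt, a lysine methyltransferase gene, which was at 12.8, 12.9 and 14.8 CPM in control and 14.99, 14.3 and 18.6 CPM in CKO libraries, so that a match stood beside overlapping levels there. With the longer CCAGGACCT, matches remained in Taf6, Dtnb and Rnf187 and were present in 0.584% of all windows. A match describes the letters only, and binding was not measured in these data.

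Of the 7 genes fixed as reported ZBTB24 targets, 3 fell by edgeR (Taf6, Ostc and Cdc40), beside 0.0227% of all genes tested. With Cdca7 and Axin2, 5 were lower by DESeq2, beside 0.0675% of all genes with an adjusted p there. The median log2 fold change was -0.75, beside 0 over all genes tested. Rnf169, a chromatin-binding ubiquitin ligase gene of the DNA damage response, was at 69.2, 80.7 and 75.6 CPM in control and 74.0, 76.3 and 76.8 CPM in CKO libraries (log2 fold change 0.01, SE 0.08, adjusted p = 1 by edgeR). These targets were listed with earlier results of these libraries known, so their direction is not independent evidence.

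Other subunits of the complexes to which Taf6 and Ostc belong did not pass. Of 14 tested TFIID subunits, Taf6 alone passed, and the median over all 14 was 0.03. The other 13, among them Taf1, the largest subunit (log2 fold change 0.02), Taf4 (0.07), Taf10 (0.11), Taf12 (0.14) and Tbp, which binds the TATA box (-0.03), lay between -0.05 and 0.14. Of 12 tested oligosaccharyltransferase subunits, Ostc alone passed, and the median was 0.04. The catalytic subunits Stt3a (0.05) and Stt3b (-0.0035) and the scaffold subunits Rpn1 (0.10) and Dad1 (0.22) did not pass. The other ICF genes likewise did not pass: Dnmt3b was at 12.0, 13.2 and 14.1 CPM in control and 15.01, 14.5 and 14.1 CPM in CKO libraries (log2 fold change 0.15, SE 0.12, adjusted p = 1), and Hells was at 21.9, 23.9 and 18.8 CPM in control and 24.0, 29.7 and 20.7 CPM in CKO libraries (log2 fold change 0.20, SE 0.14, adjusted p = 1). No member of the DNA methylation machinery passed, including the maintenance methyltransferase Dnmt1 (log2 fold change 0.18), its cofactor Uhrf1 (0.57), Dnmt3a (-0.01) and the TET dioxygenases Tet1, Tet2 and Tet3 (0.11, 0.01 and 0.04), with a median of 0.01 over 15. Of 15 germline genes that DNA methylation keeps silent in somatic cells, 13 were too low to be tested, and the tested Ddx4 and Sycp1 had log2 values of -0.47 and -0.88 (adjusted p = 1 each by edgeR).

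Further genes were lower in CKO libraries by DESeq2 and did not pass edgeR. Rnf187, a ubiquitin ligase gene, was at 159, 161 and 189 CPM in control and at 125.9, 126 and 127 CPM in CKO libraries (log2 fold change -0.42, SE 0.08, adjusted p = 0.2281 by edgeR and 0.01016 by DESeq2; range over the alternatives 0.001067 to 0.9999). Grk3, a kinase gene that desensitises G protein-coupled receptors, was at 103, 85.2 and 78.0 CPM in control and at 52.5, 55.1 and 63.9 CPM in CKO libraries (log2 fold change -0.64, SE 0.11, adjusted p = 0.1993 by edgeR and 0.0002109 by DESeq2; range 4.254e-09 to 0.7529). In both genes the groups did not overlap, which the rule that named them required. Every CKO library lay below every control in 3.96% of all genes tested. H60b, a ligand gene of the activating receptor NKG2D, was at 14.99, 12.97 and 13.7 CPM in control and at 6.21, 6.17 and 9.10 CPM in CKO libraries (log2 fold change -0.96, SE 0.17, adjusted p = 0.1642 by edgeR and 3.423e-05 by DESeq2; range 1.013e-05 to 0.7656). Siglech, a marker of plasmacytoid dendritic cells, was at 6.62, 9.20 and 7.74 CPM in control and at 3.46, 4.70 and 4.08 CPM in CKO libraries (log2 fold change -0.94, SE 0.19, adjusted p = 0.2818 by edgeR and 0.002161 by DESeq2; range 0.001406 to 0.943). It stood on the dendritic cell list, whose 9 tested markers all had a negative log2 value, with a median of -0.34, and whose summed level was 59.8 to 75.5 CPM in control and 46.0 to 67.2 CPM in CKO libraries. Each of these 9 markers was counted in all 6 libraries, and their part in the value of Siglech was not tested.

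Of the 10 genes that rose, BC018473 showed the tightest groups. This antisense transcript (chromosome 11, 116752167 to 116759373, plus strand) was at 71.9, 79.9 and 81.7 CPM in control and at 142.5, 145 and 146.5 CPM in CKO libraries (log2 fold change 0.89, SE 0.07, adjusted p = 0.0006342), 186% of control. Map7, which encodes a microtubule-binding protein, was at 10.7, 8.93 and 9.71 CPM in control and at 25.0, 19.6 and 17.3 CPM in CKO libraries (log2 fold change 1.08, SE 0.15, adjusted p = 0.02464). Hepacam2, a cell adhesion gene of the immunoglobulin superfamily, was at 15.4, 14.7 and 14.5 CPM in control and at 32.5, 25.1 and 25 CPM in CKO libraries (log2 fold change 0.89, SE 0.12, adjusted p = 0.02459). The lowest CKO library of each gene lay above the highest control. Adk, the adenosine kinase gene, was at 12.8, 15.4 and 12.6 CPM in control and at 25.2, 24.5 and 21.2 CPM in CKO libraries (log2 fold change 0.79, SE 0.12, adjusted p = 0.04272). Crisp3, which encodes a cysteine-rich secretory protein, was at 0.513, 0.377 and 0.694 CPM in control and at 2.997, 1.74 and 2.21 CPM in CKO libraries (log2 fold change 2.14, SE 0.31, adjusted p = 0.03822). Calls of Map7, Hepacam2, Adk and Crisp3 ended without any of the 3 control libraries in turn and without MZ CKO replicate 1, with adjusted p up to 0.1399, 0.1399, 0.3394 and 0.2901, and that of Adk also without MZ CKO replicate 2. BC018473 passed in all 6 fits that left out a library.

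Some of the genes that rose were nearly silent in controls. Sva, which encodes the seminal vesicle antigen (chromosome 6, 42038394 to 42042851), had 0 counts over the 3 control libraries against 164 over the 3 CKO libraries, a level at least 55.7-fold higher when 3 counts over the control group are taken as the floor (adjusted p = 0.0009202 by edgeR). Its CKO libraries were close, at 1.46, 1.29 and 1.42 CPM. The lincRNA Gm26581 had 0 counts in controls against 293 with CKO, which is at least 99.4-fold higher (adjusted p = 0.0006781), and the processed pseudogene Gm5421 had 6 and 477 counts, a ratio of 80.9 (95% counting interval 36.9 to 222; adjusted p = 4.975e-05). Hmgb1-ps8, a processed pseudogene of the chromatin protein gene Hmgb1, had 8 and 1545 counts, a ratio of 197 (99.5 to 456; adjusted p = 4.975e-05). Pseudogenes share sequence with their parent genes and relatives, so the assignment of their reads is uncertain. These 4 genes passed in all 6 fits that left out a library.

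Several of the genes that rose lay close together in the genome. Chromosome 10, which carries Zbtb24, held 6 of the 14 calls and 758 of the genes tested (0.792% called there). The lincRNA Gm26581, the antisense gene Gm26740, Hmgb1-ps8 and Gm5421 lie between 22187013 and 22345792, about 19.2 Mb before Zbtb24. Gm26740 was at 12.7, 10.8 and 10.1 CPM in control and at 22.6, 21.6 and 28.8 CPM in CKO libraries (log2 fold change 1.12, SE 0.14, adjusted p = 0.01355), and its call ended without any of the 3 control libraries in turn (adjusted p up to 0.07582). Within 200 kb of Gm26740, 14 genes were tested. In 5 of them every CKO library lay above every control and in 6 every CKO library lay below, beside 3.74 and 3.96% of all genes tested. The 5 include Gm26740, Gm26581, Hmgb1-ps8 and Gm5421, the calls through which the region was picked. H60b, among the 6, was named by a rule that required groups without overlap. These counts are therefore not independent of that choice. The 6 were H60b, Gm2539, C920009B18Rik, E030030I06Rik, Gm26528 and Gm7678, chosen with the exception of H60b after their values were seen. C920009B18Rik, a transcribed pseudogene, was at 50.1, 40.1 and 44.6 CPM in control and at 31.1, 32.6 and 37.7 CPM in CKO libraries (log2 fold change -0.41, SE 0.10, adjusted p = 0.8789), so that neighbours stood on opposite sides. Gm26740 and H60b overlap on opposite strands and together contain Gm26581 and Hmgb1-ps8, and reads of overlapping genes cannot be told apart where counting does not use strand. Map7 lies 21.2 Mb and Cdc40, which fell, 0.567 Mb from Zbtb24. The conditional allele lies on this chromosome, so its neighbourhood and the genotype cannot be told apart here.

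**Figure D2:**
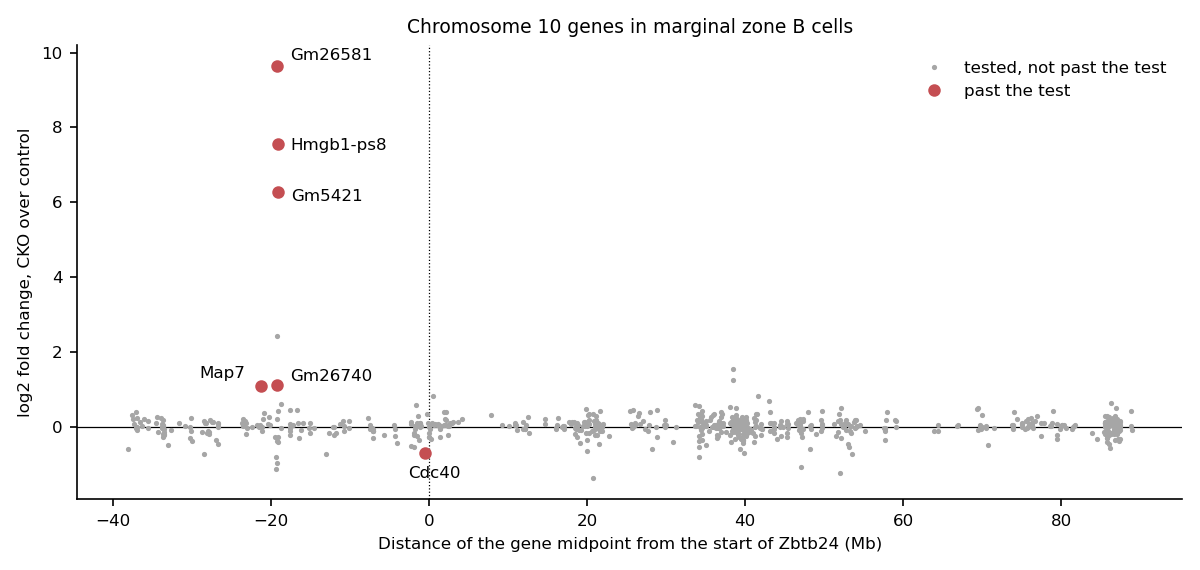
Each point is a tested chromosome 10 gene, with the distance of its midpoint from the start of Zbtb24 in Mb on the horizontal axis and the log2 fold change of CKO over control on the vertical axis. The 6 genes past the edgeR test are in red: 4 lie together about 19.2 Mb from Zbtb24, Map7 lies beside them, and Cdc40 lies next to Zbtb24 and below 0. The fitted values of Gm26581, Hmgb1-ps8 and Gm5421 rest on 0 to 8 control counts and depend on the prior count.

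A second group of neighbouring genes lay on chromosome 11 around BC018473. St6galnac1, a sialyltransferase gene whose product adds sialic acid to O-linked glycans, was at 6.80, 7.40 and 6.85 CPM in control and at 11.4, 12.6 and 14.9 CPM in CKO libraries (log2 fold change 0.88, SE 0.14, adjusted p = 0.08662 by edgeR and 1.231e-05 by DESeq2; range over the alternatives 1.231e-05 to 0.4542). Its relative St6galnac2 was at 31.6, 30.5 and 34.6 CPM in control and at 39.3, 54.2 and 68.0 CPM in CKO libraries (log2 fold change 0.74, SE 0.19, adjusted p = 1 by edgeR and 0.001877 by DESeq2; range 3.432e-10 to 1). Of 15 genes tested within 200 kb of St6galnac1, 8 had every CKO library above every control and 1, Mettl23, had every CKO library below, beside 3.74 and 3.96% of all genes tested. Among the 8 are BC018473, St6galnac1 and St6galnac2, through which the region was picked, and Gm11735, which DESeq2 also called. The count is therefore not independent of that choice. The 8 included Cygb, the cytoglobin gene, at 6.78, 5.65 and 9.35 CPM in control and 11.4, 10.9 and 12.96 CPM in CKO libraries (log2 fold change 0.70, SE 0.19, adjusted p = 1 by edgeR and 0.07164 by DESeq2). Cygb and Mettl23 were chosen after their values were seen.

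Other genes were higher in CKO libraries by DESeq2 alone. Il5ra, the alpha chain of the interleukin 5 receptor, was at 16.7, 16.9 and 22.4 CPM in control and at 40.8, 29.0 and 34.5 CPM in CKO libraries (log2 fold change 0.90, SE 0.15, adjusted p = 0.1993 by edgeR and 4.811e-06 by DESeq2; range 1.159e-11 to 0.8402). The groups of Il5ra did not overlap, a condition of the rule for genes past DESeq2 only. Every CKO library lay above every control in 3.74% of all genes tested. The beta chain genes Csf2rb and Csf2rb2 had log2 values of -0.18 and -0.61 and did not pass (adjusted p = 1 each by edgeR). Oas1a, an interferon-induced oligoadenylate synthetase gene, was at 15.5, 12.8 and 15.6 CPM in control and at 22.3, 38.1 and 29.2 CPM in CKO libraries (log2 fold change 1.03, SE 0.19, adjusted p = 0.321 by edgeR and 2.553e-06 by DESeq2; range 8.125e-14 to 0.9999). Mcoln2 and Mcoln3, neighbouring genes on chromosome 3 for endolysosomal cation channels, were both higher (Mcoln3: log2 fold change 0.45, SE 0.09, adjusted p = 0.2909 by edgeR and 0.02895 by DESeq2). Mcoln2 was at 75.8, 67.8 and 63.6 CPM in control and at 100.4, 87.0 and 100.5 CPM in CKO libraries (log2 fold change 0.47, SE 0.09, adjusted p = 0.1993 by edgeR and 0.003647 by DESeq2; range 5.369e-05 to 0.9999). Hdac9, a class II histone deacetylase gene, was at 35.4, 40.8 and 36.1 CPM in control and at 49.7, 53.8 and 52.3 CPM in CKO libraries (log2 fold change 0.47, SE 0.08, adjusted p = 0.1517 by edgeR and 0.003121 by DESeq2; range 0.0005024 to 0.8455). Cacna1i, a T-type calcium channel gene, was at 36.6, 44.5 and 31.7 CPM in control and at 53.4, 67.4 and 50.7 CPM in CKO libraries (log2 fold change 0.60, SE 0.15, adjusted p = 1 by edgeR and 0.01389 by DESeq2; range 2.673e-07 to 1). Stac2, an adaptor gene for calcium channels, was at 5.08, 4.68 and 2.80 CPM in control and at 5.99, 10.3 and 10.7 CPM in CKO libraries (log2 fold change 1.10, SE 0.28, adjusted p = 1 by edgeR and 0.006583 by DESeq2; range 1.467e-05 to 1).

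The signalling and identity genes of MZ B cells gave no call by edgeR. Over all lists 386 genes were tested, of which 30 had an unadjusted p under 0.05 by edgeR (7.77%, beside 2.9% of all genes tested) and 30 by DESeq2. The lists were chosen with earlier results of these libraries known, and beside the targets DESeq2 called only Il5ra, Oas1a and Siglech among them. Of 17 tested genes of proximal B cell receptor signalling, none passed, all lay between -0.07 and 0.13 in log2, and the median was 0.004. Cr2 had a log2 value of -0.05, the receptor chains Cd79a and Cd79b of 0.03 and -0.0012, the kinases Syk, Lyn and Btk of -0.04, 0.04 and 0.0039, and the phospholipase Plcg2 of 0.13. Among 12 inhibitory receptors and phosphatases, none passed, the median was -0.04, and Cd72 was the one with every CKO library above every control (1 of 12, beside 3.74% of all genes tested), at 284, 298.5 and 289 CPM in control and 304, 353.5 and 345 CPM in CKO libraries (log2 fold change 0.20, SE 0.08, adjusted p = 1). Among 11 genes of the BAFF and CD40 pathway the median was 0.03, and every CKO library lay above every control for 2 (Traf2 and Traf6, log2 values 0.07 and 0.08) and below for 2 (Traf1 and Map3k14), beside 3.74 and 3.96% of all genes tested. The adaptor Traf1 was at 201, 175 and 204 CPM in control and 153, 151 and 172 CPM in CKO libraries (log2 fold change -0.29, SE 0.09, adjusted p = 1), and Map3k14, the kinase NIK, had a log2 value of -0.11. Groups that do not overlap were thus found for genes with small differences as well. The Notch2 pathway, on which MZ B cells depend, had a median of 0.01 over 11 genes, with Nrarp, a feedback inhibitor, at 1.10, 0.931 and 0.805 CPM in control and 1.34, 1.62 and 1.82 CPM in CKO libraries (log2 fold change 0.75, SE 0.25, adjusted p = 1). MHC class II genes had a median of 0.03 over 9, Toll-like receptors of 0.01 over 13 and cytokine receptors of 0.01 over 15.

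Markers of MZ identity showed the same. Of 10 tested MZ markers, none passed and the median was -0.05. Cd9, a tetraspanin, was at 72.8, 69.5 and 71 CPM in control and at 64.8, 50.01 and 54.9 CPM in CKO libraries (log2 fold change -0.33, SE 0.09, adjusted p = 1), the 1 of 10 markers whose groups did not overlap, beside 3.96% of all genes tested with every CKO library below and 3.74% with every CKO library above. Ackr3, a scavenging chemokine receptor, was at 25.6, 17.6 and 20.8 CPM in control and at 148, 114 and 23.0 CPM in CKO libraries (log2 fold change 2.16, SE 0.77, adjusted p = 1), so that CKO libraries 1 and 2 were high and CKO library 3 stood at the control level. All 6 FO markers had a positive log2 value, with a median of 0.21 and values from 0.07 to 0.29, and none passed. Among 18 tested B cell transcription factors, 15 had a positive value, none passed and the median was 0.10. Every CKO library lay above every control for 4 of the 18 and below for 1, beside 3.74 and 3.96% of all genes tested. Id2, an inhibitor of E proteins, was at 25.3, 30.2 and 21.6 CPM in control and 20.2, 19.6 and 18.1 CPM in CKO libraries (log2 fold change -0.41, SE 0.12, adjusted p = 1). Bhlhe41, which represses transcription and marks B-1 cells, was at 20.1, 18.6 and 16.3 CPM in control and 26.6, 26.8 and 21.6 CPM in CKO libraries (log2 fold change 0.45, SE 0.12, adjusted p = 1).

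Genes of antibody production also gave no call by edgeR. The 11 tested plasma cell genes had a median of 0.06, the 15 genes of endoplasmic reticulum folding and stress of 0.05 and the 16 genes of class switching and end joining of 0.08. Immunoglobulin constant genes had a median of 0.11 over 11, with Ighm at 0.10 and Igkc at 0.17. Igkc was at 1296, 1470.0 and 1287 CPM in control and at 1640.0, 1557 and 1368 CPM in CKO libraries (log2 fold change 0.17, SE 0.10, adjusted p = 1), with overlapping groups. The nuclease gene Dclre1c (Artemis), which opens hairpins in end joining, was at 42.9, 38.3 and 38.6 CPM in control and 36.02, 30.1 and 34.1 CPM in CKO libraries (log2 fold change -0.26, SE 0.09, adjusted p = 1).

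**Figure D3:**
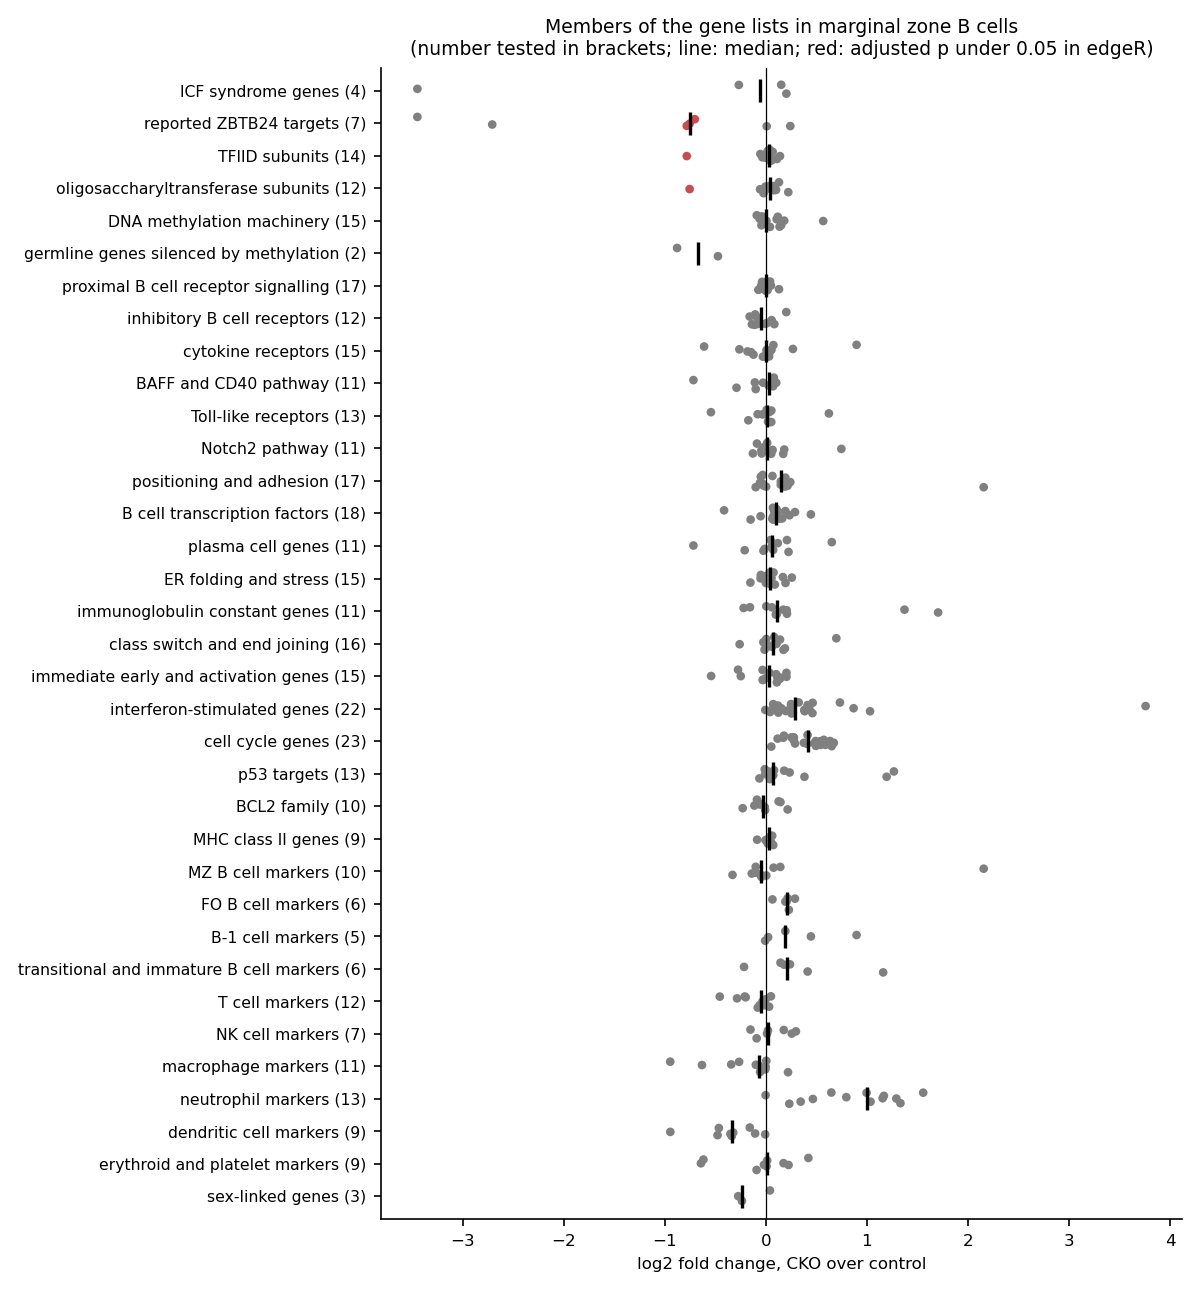
Each point is a tested member of a gene list, with its log2 fold change of CKO over control on the horizontal axis, the list median as a black line and members past edgeR in red. Taf6, Ostc and Cdc40 are the red points, the reported ZBTB24 targets have their median at -0.75, and the lists for cell cycle genes, interferon-stimulated genes and neutrophil markers lie mostly to the right of 0.

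Cell cycle genes, interferon-stimulated genes and neutrophil markers leaned upward without any call by edgeR, and their CKO libraries differed from each other. All 23 tested cell cycle genes had a positive log2 value, from 0.05 for the cyclin Ccnd3 to 0.67 for the proliferation marker Mki67, with a median of 0.41 beside 0 over all genes tested. Set against the control mean, the median over the list was 0.16, 0.94 and -0.13 in CKO libraries 1, 2 and 3. Mcm2, a subunit of the replicative helicase, was at 66.9, 82.1 and 73.3 CPM in control and at 92.7, 141 and 77.3 CPM in CKO libraries (log2 fold change 0.48, SE 0.25, adjusted p = 1), so CKO library 2 carried the highest value and CKO library 3 lay among the controls. Of 22 interferon-stimulated genes, 21 had a positive value, with a median of 0.29, and the medians of CKO libraries 1 to 3 were -0.18, 0.73 and 0.28. The members ranged from -0.0049 to 3.76, with Oas3 at 0.87, Oasl2 at 0.73, Xaf1 at 0.46, Ifit1 at 0.38, Isg15 at 0.06 and Mx1 at 0.04. The highest, Ifi44, was at 0.462, 0.288 and 0.832 CPM in control and at 5.17, 15.2 and 0.790 CPM in CKO libraries (log2 fold change 3.76, SE 1.28, adjusted p = 1 by edgeR), so that CKO library 3 lay among the controls. Of 13 neutrophil markers, 12 had a positive value, with a median of 0.997, and the medians of CKO libraries 1 to 3 were -0.12, 1.53 and 0.34. Their summed level was 74.7, 183 and 86.8 CPM in control and 91.1, 299 and 145 CPM in CKO libraries, each marker was counted in all 6 libraries but Elane (0 counts in control library 3), and in both genotypes replicate 2 was the highest. Replicate 2 also held the highest sums of erythroid and platelet markers, at 169 CPM in control against 96.3 and 8.15 CPM, and at 221 CPM in CKO against 41.6 and 19.9 CPM. In bulk libraries more cells of a type and more RNA per cell cannot be told apart, and the part of other cell types in the cell cycle and interferon values was not tested.

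The remaining lists gave no edgeR call. The median was 0.07 over 13 p53 targets, of which 3 had every CKO library above every control (Phlda3, Cdkn1a and Aen, each with an unadjusted p under 0.05 and an adjusted p of 1 by edgeR), beside 3.74% of all genes tested. Phlda3, which restrains AKT signalling, was at 0.205, 0.399 and 0.361 CPM in control and 0.9504, 0.870 and 0.517 CPM in CKO libraries (log2 fold change 1.27, SE 0.38). Cdkn1a, the cell cycle inhibitor p21, was at 0.205, 0.177 and 0.222 CPM in control and 0.292, 0.821 and 0.272 CPM in CKO libraries (log2 fold change 1.20, SE 0.51), so CKO library 2 was the highest and both genes were low throughout. Aen, a nuclease gene, had a log2 value of 0.18. The median was -0.03 over 10 BCL2 family genes, 0.04 over 15 immediate early and activation genes and 0.15 over 17 genes of positioning and adhesion. It was 0.19 over 5 B-1 cell markers, 0.21 over 6 markers of transitional and immature B cells, -0.05 over 12 T cell markers, 0.02 over 7 NK cell markers and -0.065 over 11 macrophage markers. T cell markers summed to 269 to 414 CPM in control and 233 to 365 CPM in CKO libraries, and macrophage markers to 168 to 315 CPM and 197 to 289 CPM. Of these genes none passed edgeR, and Il5ra, which is also on the B-1 list, passed DESeq2.

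**Figure D4:**
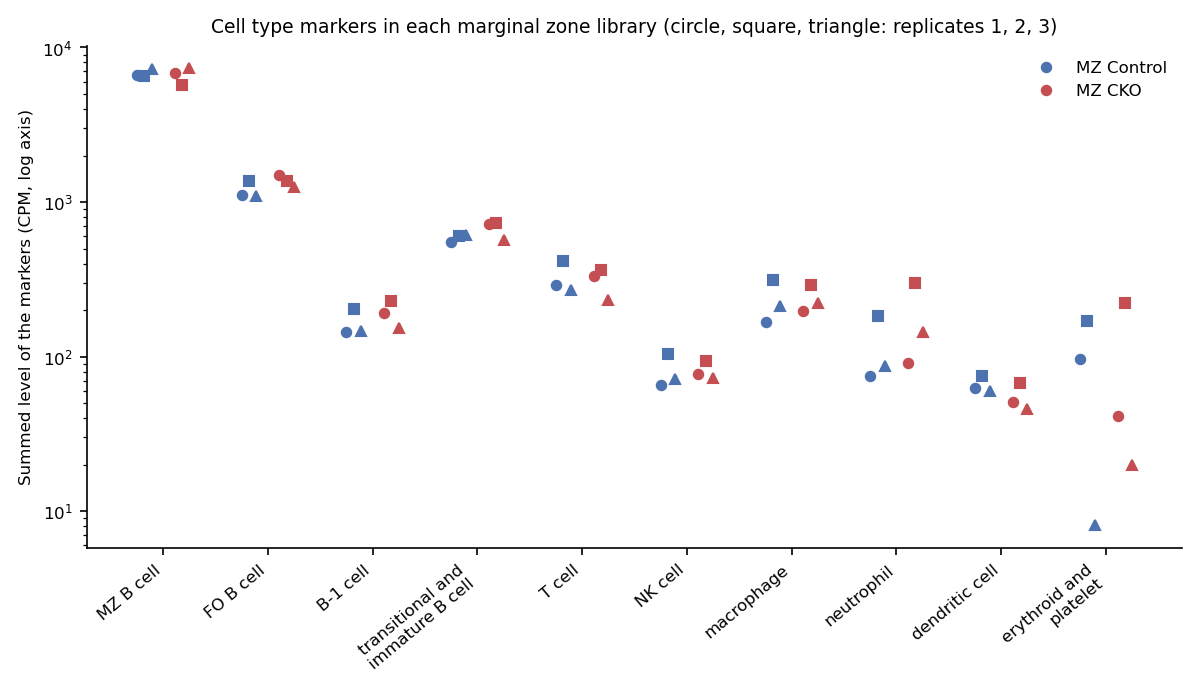
Summed CPM of each marker list (log axis) in the 6 MZ libraries, controls in blue and CKO in red, with circle, square and triangle for replicates 1 to 3. MZ markers sum to between 5727 and 7332 CPM, and the square, replicate 2, is highest for neutrophil and for erythroid and platelet markers in both groups.

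Whether the effect of CKO differed between MZ and FO B cells was tested in all 12 libraries. Of 18546 genes tested, 0 (0%) passed by edgeR, DESeq2 or limma-voom, with 238 at an unadjusted p under 0.05 in edgeR. The same 6 animal numbers label the libraries of both cell types, and the deviations of the 2 libraries of an animal correlated at 0.426 to 0.651 across genes, so the animal number was also fitted as a block. With that block 4 genes (0.0216%) passed: Mcoln3, Cdca7 and the histone genes Hist1h4a and Hist1h4j. Cdca7 was less depleted in MZ than in FO B cells, the difference of the log2 effects being 1.14 (SE 0.17, adjusted p = 0.002535 with the block, 1 without). On the scale common to both cell types it was at 2.76, 5.37 and 1.88 CPM in MZ CKO libraries and at 1.005, 2.64 and 0.55 CPM in FO CKO libraries, and in each of the 3 animals the MZ value was the higher. Control levels were 33.1, 42.5 and 33.7 CPM in MZ and 31.6, 33.8 and 32.4 CPM in FO libraries. Mcoln3 had a smaller log2 effect of CKO in MZ than in FO B cells (difference of the log2 effects -0.72, SE 0.11, adjusted p = 0.002535 with the block, 1 without). It was at 39.6, 44.4 and 37.7 CPM in MZ control and 61.3, 54.3 and 51.1 CPM in MZ CKO libraries, against 9.71, 10.4 and 8.49 CPM in FO control and 20.9, 21.7 and 21.8 CPM in FO CKO libraries. The smaller log2 effect in MZ B cells thus started from the higher control level. It compares ratios to control and not differences in CPM. Hist1h4a and Hist1h4j (differences 0.63 and 0.54, SE 0.11 and 0.10, adjusted p = 0.02964 and 0.04818 with the block), replication-dependent histone H4 genes with near-identical copies whose reads may be shared, were highest in CKO animal 1514 in both cell types, at 44.0 and 69.2 CPM in MZ and 32.6 and 49.2 CPM in FO libraries.

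For Cdc40, Ostc, Dtnb, BC018473 and Hepacam2 the MZ and FO effects lay near each other, and they lay farther apart for Taf6, Map7, Rnf187, Grk3 and Cacna1i. None of these genes passed the test of the difference, with or without the animal as a block. The adjusted p given below are from the fit without the block, which takes the 2 libraries of an animal as independent. Taf6 was at -0.78 (SE 0.09) in MZ and -1.08 (SE 0.08) in FO B cells, Cdc40 at -0.70 (0.10) and -0.82 (0.08), Ostc at -0.75 (0.10) and -0.70 (0.10), and Dtnb at -0.56 (0.08) and -0.57 (0.07). BC018473 was at 0.89 (0.07) and 0.86 (0.07), Hepacam2 at 0.89 (0.12) and 0.78 (0.10), and Map7 at 1.08 (0.15) and 1.78 (0.14). Rnf187 was at -0.42 (0.08) in MZ and -0.85 (0.07) in FO B cells, a difference of 0.43 (SE 0.11) with an edgeR adjusted p of 1. Grk3 was at -0.64 (0.11) and -0.19 (0.16) and Cacna1i at 0.60 (0.15) and 0.01 (0.07), their differences of -0.44 and 0.60 also missing the test (adjusted p = 1 each by edgeR).

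**Figure D5:**
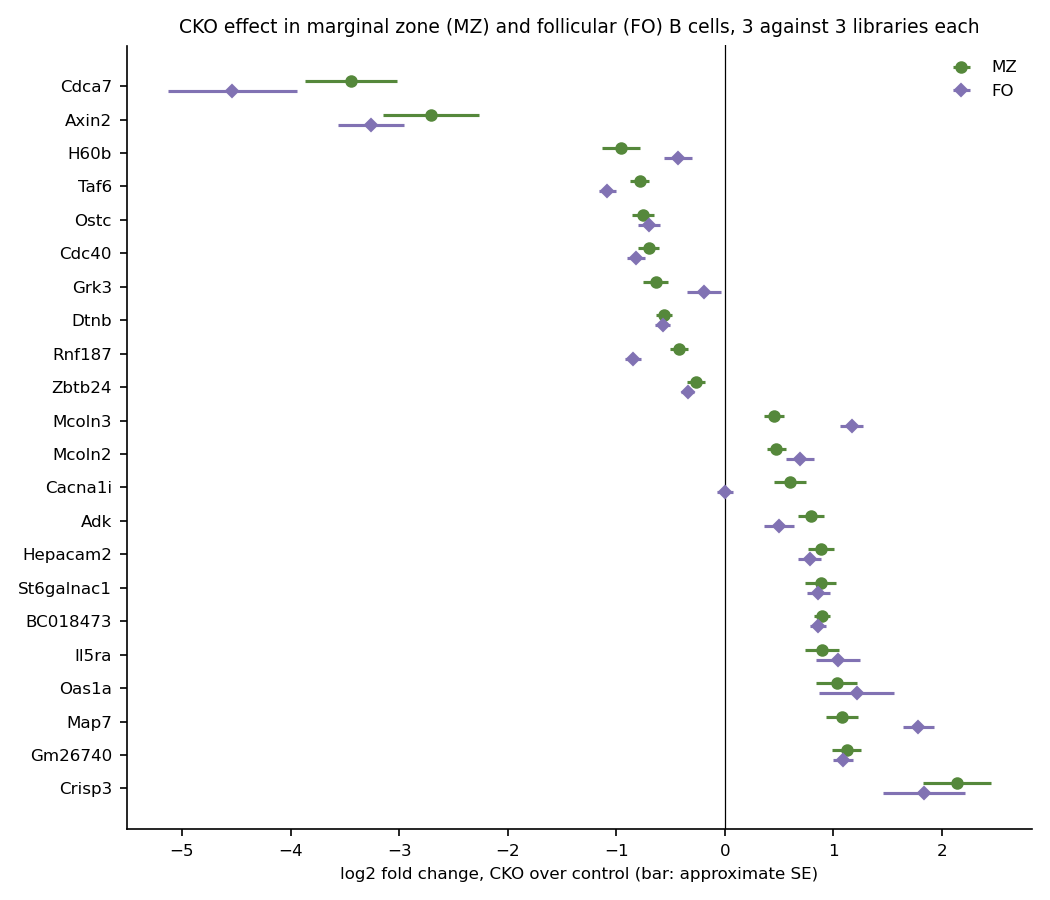
Log2 fold change of CKO over control with its approximate SE for 22 genes, in MZ (circles) and FO (diamonds) B cells, from separate fits of 3 against 3 libraries. Both cell types lie on the same side of 0 for most genes, and Cdca7, Mcoln3, Rnf187 and Map7 lie farther from 0 in FO B cells.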

How the data were processed

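RNA was sequenced from MZ and FO B cells of 3 control and 3 CKO mice. Per the labels, TruSeq libraries were made from 0.1 ug of total RNA. The submitters' processing notes name TopHat, HTSeq and DESeq2 and the builds GRCm38 and mm10, without versions. The annotation and the strand setting of the counting are not given in the sources used here. The deposited values are the authors' raw read counts per Ensembl gene, with no normalization, and 5 entries that name no gene (43.7 to 50.4% of listed reads in the MZ libraries) were left out. Symbols and positions came from Gencode mouse M21, also on GRCm38 (45229 of 46078 genes matched), and promoters from RefSeq.

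The 6 MZ libraries were fitted in edgeR 4.0.16 (R 4.3.3) with filterByExpr, TMM scaling and the robust quasi-likelihood F test. Tests were two-sided, with p adjusted by Benjamini-Hochberg over the whole table and a threshold of 0.05. The SE is approximate, computed as the size of the log2 fold change over the square root of the F statistic. CPM values use TMM-scaled library sizes of the 6 MZ libraries; sums of markers, Fcer2a, Kdm5d, Uty and values set beside FO levels use those of all 12. Library medians of lists used log2 of CPM plus 0.5. The difference between MZ and FO effects was fitted in all 12 libraries. The 2 libraries of an animal were checked for shared deviations from their group means (correlations 0.426 to 0.651), which with the shared numbers in the labels makes the animal a block there. DESeq2 1.42.0, limma-voom (limma 3.58.1), other scalings, no filter, blocks and leaving out each library were alternatives. Intervals and the floor of 3 counts over a group cover counting error only. Depth limits precision mainly for genes with few counts.

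Genes named were Zbtb24 and Cdca7, genes past the test (up to 15 in each direction), members of the ICF and target lists and up to 2 members of each other list. Added were up to 8 genes in each direction past DESeq2 only (at least 5 CPM in the higher group, no overlap, no predicted genes or pseudogenes) and the 5 smallest p between MZ and FO. There were 35 lists with 409 genes, described by counts and medians. The members and lists were chosen with earlier results of these data known.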

Additional observations from a re-analysis of the deposited data

Results flagged for a closer look

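Gm13493, a predicted gene of unknown role, was picked out because all 3 MZ CKO libraries lay below the MZ controls while all 3 FO CKO libraries lay above the FO controls, a difference of log2 effects between MZ and FO of -1.44. In MZ libraries it was at 0.642, 0.443 and 0.555 CPM in control and 0.390, 0.298 and 0.327 CPM in CKO. The test of the difference did not pass (adjusted p = 1 by edgeR).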

How the results depend on the processing

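The count of 14 genes past edgeR was 35 with DESeq2, 34 with the animals numbered 15xx alone (2 against 2, chosen after seeing the data), 7 without robust dispersions, 7 with limma-voom and 95 without the filter on low counts. All 14 were among the DESeq2 calls, 6 among the limma-voom calls and 6 among those without robust dispersions. Leaving out each library gave 5 to 34 edgeR calls, with 5 to 14 of the 14 among them, and 29 to 123 DESeq2 calls, the latter chosen after seeing the data. The replicate number as a block gave 57 calls, the 14 among them, and Cdca7 passed there (adjusted p = 0.000799 by edgeR). This block pairs control and CKO libraries by replicate number, and number 3 joins animals 2003 and 2002. Same-numbered libraries correlated at -0.0867, 0.372 and 0.39, and differently numbered ones at -0.433 to 0.0822. Numbers 2 and 3 thus lay above every differently numbered pair. Number 1 did not, and the numbers were not taken to pair the libraries in the main fit. The animal number series as a block, which sets animals 2003 and 2002 apart from those numbered 15xx, gave 14 calls. Zbtb24 stayed at the same sign and did not pass in any alternative. The difference between MZ and FO gave 0 calls, and 4 with the animal number as a replicate block. The motif was present in 1.99% of windows, and the 9-base form in 0.584%. Signs turned for Rnf169 (-0.010 with upper quartile scaling, -0.047 to 0.064 when leaving out each library), Bak1 (-0.012 to 0.259), Cd28 (-0.488 to 0.048), Hbb-bt (0.004 with the animal number series as a block, -2.469 to 0.847 when leaving out each library) and Xist (-0.598 to 0.059), none of which passed. The cause of these changes was not tested. With 3 animals a group, differences of a size near the spread between animals are not resolved, and genes with few counts are limited by depth.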

Other observations

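Several genes that gave no edgeR call over the 6 libraries were sharply different in CKO libraries 1 and 2 (animals 1512 and 1514) and stood within or near the control range in CKO library 3 (animal 2002). They were picked after their values were seen, from a fit of the animals numbered 15xx alone (2 control and 2 CKO libraries), in which 34 of 17944 genes passed edgeR and 10 of these were among the calls over all 6 libraries. CKO library 3 lay within the control range in 11 of the 34. Of the genes given here and in the next paragraph, it lay above that range in Ifi44l and Zfp985 and below it in Naip1. These genes were low in controls, and in the others it lay within the range. Zfp990, a zinc finger gene, was at 17.9, 13.9 and 31.4 CPM in control and at 0.219, 0.0995 and 31.3 CPM in CKO libraries. Gbp2b, an interferon-inducible GTPase gene, was at 0.488, 0.288 and 0.694 CPM in control and at 16.8, 15.9 and 0.626 CPM in CKO libraries, and Ifi44l was at 0.0257, 0.0222 and 0 CPM in control and at 2.997, 6.39 and 0.0817 CPM in CKO libraries. Both genes were among the 35 DESeq2 calls. The FO libraries of the same animals showed the same split, with Zfp990 at 0.179, 0.126 and 15.2 CPM and Gbp2b at 7.11, 11.03 and 0.446 CPM in FO CKO libraries 1 to 3.

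The same division was seen in Naip5, a sensor of bacterial flagellin, at 39.7, 32.9 and 36.1 CPM in control and 16.1, 16.8 and 37.3 CPM in CKO libraries. Its relative Naip1 was at 0.308, 0.355 and 0.278 CPM in control and 1.88, 2.09 and 0.245 CPM in CKO libraries. Wdfy1, which acts in Toll-like receptor signalling, was at 21.7, 22.8 and 20 CPM in control and 52.4, 48.7 and 21 CPM in CKO libraries. Clstn1, a calsyntenin gene, was at 48.5, 44.9 and 70.8 CPM in control and 24.1, 24.0 and 69.5 CPM in CKO libraries, and Nxpe2 was at 26.7, 30.3 and 30.1 CPM in control and 52.7, 46.4 and 27.6 CPM in CKO libraries. Some of these genes lie on the same chromosome. On chromosome 4 lie Zfp990 (from 145510759) and Clstn1 (from 149586468), with Zfp985 and Zfp986, split alike, between them. Naip5 (from 100211739) and Naip1 (from 100407764) lie on chromosome 13, and Gbp2b (from 142594847) and Ifi44l (from 151758737) on chromosome 3. Wdfy1 lies on chromosome 1 and Nxpe2 on chromosome 9. The cause of the split between CKO libraries was not tested.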
